A study of Homo sapiens with 18 samples.

Results

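The response of G401 cells to the EZH2 inhibitor tazemetostat was compared between a clone that had lost RB1, F2, and the control line, WT. For each gene the log2 change with tazemetostat in WT was subtracted from that in F2, and this response difference was tested for the 16182 genes, of 55765 in the deposited table, with a mean of at least 10 normalized counts over the 12 libraries compared. Genes past the threshold were then sorted by whether the response was present in WT only, in F2 only, in both lines with different sizes, in opposite directions, or in neither. The gene just inside the limit on the mean was CX3CL1, at 10.0, and the gene just outside was RP11-21L19.1, at 9.99.

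G401 is an established malignant rhabdoid tumour line. WT cells were G401 cells edited with CRISPR/Cas9 at the AAVS1 safe harbour site and keep RB1, and F2 is 1 of 2 RB1-deleted clones (E1 is the other), edited in both copies of RB1 and without RB1 protein by immunoblot, per the series' description. Each line received 10 µM tazemetostat or an equal volume of DMSO for 11 days, and 3 biological replicates of each of the 4 groups were sequenced as poly(A) RNA. F2 stands for 1 clone, so a difference between F2 and WT cannot be told apart from a difference between this clone and the control cells that has no link to RB1. E1 values are given beside those of F2 for some genes only, and a missing E1 value does not show that the clones responded alike. Of the 1279 genes whose response differed between F2 and WT, 327 also passed in the F2 minus E1 response, in the same direction.

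EZH2 is the catalytic subunit of PRC2, the complex that places methyl groups on lysine 27 of histone H3 and so keeps developmental and lineage genes silent. Rhabdoid tumour cells lack SMARCB1, a subunit of the SWI/SNF remodelling complex whose activity opposes PRC2, and they are known for their dependence on EZH2. RB1 binds E2F transcription factors and holds the genes of DNA replication and mitosis down when cells leave the cycle. E2F and MuvB complexes share this work: E2F sites are typical of G1/S genes, and CHR elements of G2/M genes.

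The libraries held 25709489 to 39314860 reads over genes, and principal components of the 12 placed each with its group. F2 DMSO replicate 3 lay farthest from its replicates, with a mean chi-square per gene (a measure of difference in reads, near 1 for sampling alone) of 13.7 and 11.4 against 8.59 between the other F2 DMSO libraries, and WT tazemetostat replicate 3 lay at 9.97 and 10.7 against 2.40. WT DMSO replicate 3 lay at 10.7 and 7.04 against 3.95, while in F2 with tazemetostat replicate 1 lay farthest, at 6.19 and 7.83 against 2.35. Without F2 DMSO replicate 3 the counts of higher and lower responses given below, 819 and 460, were 950 and 465, and without WT tazemetostat replicate 3 they were 858 and 443. Without WT DMSO replicate 3 they were 762 and 466. SMARCB1 had 0 reads in all 12 libraries. RB1 transcript was 2828, 2687 and 2566 normalized counts in WT with DMSO and 2517, 2606 and 2300.4 with tazemetostat, and 861, 804 and 852 in F2 with DMSO and 945, 932 and 936 with tazemetostat. Every F2 library lay below every WT library, and the log2 difference between the lines in DMSO was -1.68 ± 0.06 (SE; limma adjusted p = 5.3e-11), so F2 kept part of the transcript of the edited gene. Its response difference of 0.28 was under the fold limit. Of the markers of other cells, the leukocyte list summed to at most 11.1 normalized counts and the erythroid list to at most 6.80 in any library, with CD3E and HBB at 0. The epithelial list, which consists almost wholly of KRT8 and KRT18, summed to 39287 to 43898 in WT with DMSO and 270800 to 283120 with tazemetostat, and to 22181 to 24417 and 146800 to 157870 in F2, while EPCAM was at most 19.5. The fibroblast list summed to 6773 to 6947 and 14886 to 15638 in WT and to 5655 to 6038 and 12029 to 13448 in F2, with DCN at most 9.35. The 3 endothelial markers counted here summed to at most 3.11 with DMSO, and to 40.4 to 46.8 in WT and 55.5 to 69.6 in F2 with tazemetostat. Members of the fibroblast list did not move alike. PDGFRA was 3422 to 3477 in WT with DMSO and 1692 to 1943 with tazemetostat, although the sum went up. Of 4 fibroblast markers tested for the response difference, 1 passed higher in F2 and 1 lower. With tazemetostat COL1A1 was 5673 to 6839 in F2 and 1878 to 1999 in WT, and THY1 was 4531 to 5040 and 10998 to 11417. What these marker genes contribute to the other results was not tested.

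The response differed between the lines for 1279 genes, 7.9% of those tested (limma on log2(value + 1), adjusted p under 0.05 and a difference of at least 1). In 819 of them the response was higher in F2 (5.06% of genes tested) and in 460 it was lower (2.84%), so 64.0% were higher in F2. With every library scaled to the same total, 74.8% were higher, and without a fold limit 48.9%. That scaling moved the median difference of all genes from 0.0065 to 0.129, and differences are best read relative to that shift. In WT alone 14.6% of genes rose with tazemetostat and 6.81% fell, and in F2 13.3% rose and 3.79% fell.

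By class, the fall seen in WT was absent in F2 for 316 genes, which made up 24.7% of the genes with a response difference. A rise was present in WT only for 96 genes, a rise in F2 only for 77 and a fall in F2 only for 86. Both lines rose, by different amounts, for 515 genes, of which 329 rose more in F2. Both fell for 30 genes, 22 of them further in F2. The responses were opposite, each past the threshold, for 5 genes, and neither response alone passed for 154. A response is called absent here when it missed the threshold, which does not show that it was 0; of the 316 falls absent in F2, 266 had a 95% interval for F2 that lay within a log2 change of 1 of no change, and 118 had an adjusted p under 0.05 at a smaller size. The same interval held for 71 of the 96 rises absent in F2, and, for WT, for 40 of the 77 rises and 62 of the 86 falls seen in F2 only.

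**Figure D1:**
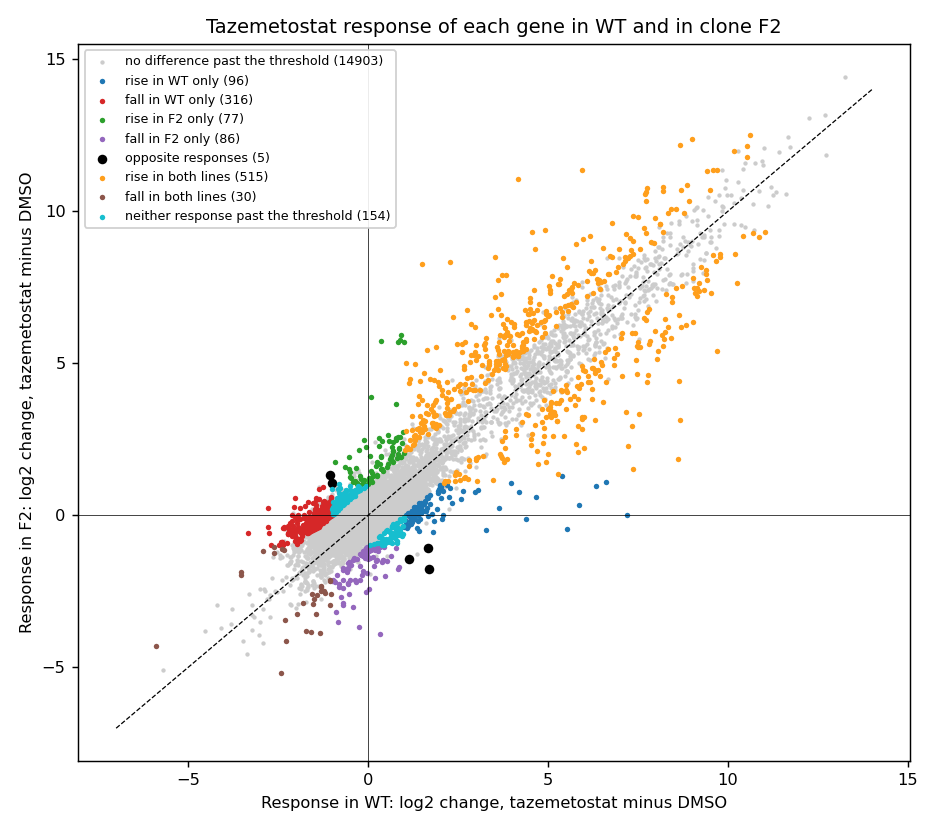
Log2 change with tazemetostat in WT (x axis) and in F2 (y axis) for each tested gene, 3 libraries per group, with the 1279 genes whose response differed coloured by class. The genes that fell in WT only form a band left of 0 near the line of no change in F2, and the genes that rose in both lines extend to the upper right.

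A fold limit set on log2(value + 1) treats genes at the edge of detection and abundant genes alike. Of the 1279 genes, 258 had 3 reads or fewer in every DMSO library of both lines, and 251 of these rose in both lines. The quasi-likelihood test of edgeR on the recovered reads called 1003 genes, 6.2% of those tested. It called 14 of these 258 and 953 (93.3%) of the other 1021. In the 258 genes the fitted difference depends on the pseudocount. The examples that follow were taken from genes with a mean of at least 50. That limit did not keep all of the 258 out, since a high level with tazemetostat lifts the mean. SYNPO2, DDX60, MMP2, COL12A1 and FOXF1, named below, belong to the 258.

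The largest one-line class was that of genes that fell in WT and did not pass the threshold in F2. In F2, 220 of the 316 had a change of the same sign as in WT. The class had a median log2 change of -1.45 in WT, -0.16 in F2 and -0.16 in the other RB1-deleted clone, E1. The median level went from 512 to 163 normalized counts in WT and from 643 to 541 in F2. In 294 of the 316 genes the lines differed past the threshold with tazemetostat only. Genes of the cell cycle made up much of this class: 95 of the 316 (30.1%) were on the lists of E2F and G1/S genes or of G2/M genes, which together hold 1.04% of the genes tested. In bulk RNA, fewer cycling cells and less of these transcripts per cell cannot be told apart.

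E2F and MuvB complexes are known to bind through certain letters in promoters. The promoters of 3 of these genes are shown, picked from the cell cycle lists by the size of the response difference and not by such letters. They run from 250 bases before to 50 after the start given by RefSeq (GRCh38.p14), 5′ to 3′ along the gene, with matches to the searched letters in capitals. LMNB1 lies at chr5:126776373-126776672, plus strand, GINS2 at chr16:85688905-85689204, minus strand, and MKI67 at chr10:128126374-128126673, minus strand. LMNB1 has 2 starts in that table, of which the most upstream is shown.
LMNB1: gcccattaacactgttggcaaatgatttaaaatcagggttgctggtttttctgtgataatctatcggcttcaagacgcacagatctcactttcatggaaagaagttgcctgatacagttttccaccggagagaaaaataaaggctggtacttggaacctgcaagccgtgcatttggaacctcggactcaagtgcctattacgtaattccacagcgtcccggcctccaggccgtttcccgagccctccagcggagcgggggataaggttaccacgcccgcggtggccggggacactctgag
GINS2: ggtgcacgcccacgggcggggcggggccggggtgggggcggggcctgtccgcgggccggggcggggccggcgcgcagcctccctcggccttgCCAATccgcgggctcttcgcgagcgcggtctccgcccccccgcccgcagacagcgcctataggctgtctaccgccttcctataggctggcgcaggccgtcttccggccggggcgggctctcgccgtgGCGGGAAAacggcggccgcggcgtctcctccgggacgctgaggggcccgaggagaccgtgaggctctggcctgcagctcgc
MKI67: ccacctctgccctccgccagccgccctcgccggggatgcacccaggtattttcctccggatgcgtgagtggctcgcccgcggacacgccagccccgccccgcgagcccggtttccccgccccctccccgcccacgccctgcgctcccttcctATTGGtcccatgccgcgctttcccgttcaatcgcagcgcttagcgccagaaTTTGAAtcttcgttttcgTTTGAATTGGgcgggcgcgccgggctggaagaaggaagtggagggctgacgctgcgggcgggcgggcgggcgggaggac

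The letters searched, on both strands, were TTTGGCGC, TTTCCCGC, TTTGGCGG and TTTCGCGC for E2F sites, TTTGAA for the CHR element, CCAAT for the CCAAT box and GGAATG for TEAD sites. GINS2 had CCAAT at position -158 and GCGGGAAA, the reverse of an E2F form, at -31 from the start. MKI67 had ATTGG, the reverse of CCAAT, at -98 and -24 and TTTGAA at -47 and -29, and the copies at -29 and -24 overlap by a base. LMNB1 had no match in this window. Of the E2F and G1/S genes that fell in WT only, 39 of 43 had a promoter in the table, and 51.3% of those held E2F letters, 5.13% TTTGAA, 66.7% CCAAT and 10.3% TEAD letters. Of the G2/M genes that fell in WT only, 43 of 52 had one, and the shares were 11.6%, 72.1%, 76.7% and 9.30%. Over all 27305 promoters in the table they were 3.42%, 15.5%, 35.7% and 14.1%. Among the tested genes, of which 68.6% had a promoter in the table, they were 5.54%, 9.73%, 36.55% and 10.8%. A match describes letters and shows no binding. Genes of these lists outside the class were not counted, so the shares do not set the class apart from its lists. Whole classes are not compared, because fewer than 80% of the members of each class had a promoter.

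LMNB1, which encodes lamin B1 of the nuclear envelope, was 7061, 6928 and 6395 normalized counts in WT with DMSO and 1516, 1576 and 1342 with tazemetostat, and 9244, 8991 and 7934 in F2 with DMSO and 6596, 6220.2 and 6308 with tazemetostat. The WT tazemetostat libraries lay far below all others. Its response difference was 1.75 ± 0.10 (SE) with a limma adjusted p of 2.3e-08. GINS2, a subunit of the replicative helicase, was 1629, 1599 and 1519.8 normalized counts in WT with DMSO and 362, 439 and 320.2 with tazemetostat, and 1718, 1677 and 1671 in F2 with DMSO and 1264, 1226 and 1229 with tazemetostat. It fell by 2.09 on the log2 scale in WT, and its change in F2 was -0.45 (95% interval -0.63 to -0.26), a difference of 1.65 ± 0.12 (SE). MKI67, the gene of the proliferation antigen Ki-67, was 13650, 16489 and 16217 normalized counts in WT with DMSO and 5768, 6023 and 5598 with tazemetostat, and 17212, 17296 and 21806 in F2 with DMSO and 18484, 23226 and 23440 with tazemetostat. The F2 groups overlapped, and the F2 interval of -0.02 to 0.44 lies within a log2 change of 1.

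Cyclins and their kinases did not all move alike. CCNA2, cyclin A2 of S phase and G2, was 4615, 4314 and 4117 normalized counts in WT with DMSO and 1169, 1244 and 972 with tazemetostat, and 5370.1, 5338 and 4868 in F2 with DMSO and 3973, 3995 and 3989.5 with tazemetostat. Its response difference was 1.57 ± 0.11 (SE; limma adjusted p = 1.4e-07), and in E1 its log2 change was -0.25. CCNE2, an E-type cyclin, changed by -1.37 in WT and -0.01 in F2, a difference of 1.36 ± 0.12 (SE). CCNE1, the other E-type cyclin, did not pass in either line, at 0.02 and 0.19. CDK1, the mitotic kinase, was 3828, 3682 and 3321 normalized counts in WT with DMSO and 2141, 2149 and 1736 with tazemetostat, and 4397, 3954 and 3683 in F2 with DMSO and 4995, 5073 and 4977 with tazemetostat. Its response difference of 1.18 ± 0.12 (SE) passed, but the WT change of -0.85 missed the fold limit, so it counts among genes with neither response present. AURKA, a kinase of the spindle poles, was placed in that class too, with -0.71 and 0.34. Without F2 DMSO replicate 3 its difference of 1.06 became 0.997, just under the limit. CDK2 and CCNB1 fell in WT, by 1.25 and 1.04, and had differences of 0.93 and 0.93, which passed a fold limit only with every library scaled to the same total.

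Transcription factors that drive the cycle followed. FOXM1, the activator of G2/M genes, had a response difference of 1.34 ± 0.06 (SE), MYBL2, the MuvB partner of late G1, one of 1.26 ± 0.08 (SE), and the kinase gene AURKB one of 1.21 ± 0.06 (SE). RBL1, which encodes the RB1 relative p107, fell by 1.46 in WT against a change of -0.36 in F2. RBL2, the gene of p130, changed by -0.40 and -0.11, and neither its responses nor their difference passed. E2F2 fell in both lines, by 2.34 in WT and 1.13 in F2, while E2F1 (-0.64 and -0.30) and E2F3 (-0.33 and -0.27) passed in neither.

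Over all genes tested, 5.06% had a higher and 2.84% a lower response in F2. In WT 6.81% of them fell, and in F2 3.79% fell and 13.3% rose. Counted over the lists, 47 of 82 E2F and G1/S genes (57.3%) had a higher response in F2 and 0 a lower one. In WT 60 of these 82 fell, and in F2 1 fell (E2F2) and 1 rose (E2F7). The list median was -1.27 in WT and -0.24 in F2, beside medians of 0.026 and 0.021 over all genes. Of the 87 G2/M genes, 60 had a higher response in F2 and 0 a lower one, 59 fell in WT, and none passed in F2, with medians of -1.14 and -0.07. At an unadjusted limma p under 0.05, 80 E2F and G1/S genes and 86 G2/M genes had a higher response in F2 and 0 of either a lower one, and in F2 itself 4 E2F and G1/S genes were higher and 56 lower with tazemetostat, against 16 and 33 of the G2/M genes. By edgeR and by DESeq2 the counts with a higher response were 46 and 59, with 0 lower, and 0 G2/M genes passed in F2 by edgeR. The E2F and G1/S genes that did not pass had differences from -0.11 to 0.95, and the G2/M genes from -0.07 to 0.97. These lists were chosen with earlier results of these data known and are not independent evidence of direction.

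The target of the drug was itself among these genes. EZH2 transcript was 2560.1, 2492 and 2383 normalized counts in WT with DMSO and 916, 880.1 and 832 with tazemetostat, and 3374, 3161 and 3088 in F2 with DMSO and 2717, 2599.9 and 2632 with tazemetostat. The WT tazemetostat group lay below the other groups, which lay close together, and the response difference was 1.22 ± 0.07 (SE; limma adjusted p = 4.1e-08). PHF19, an accessory subunit of PRC2, was 2241, 2293 and 2291 normalized counts in WT with DMSO and 1050.5, 1042 and 996 with tazemetostat, and 2867, 2782 and 2776 in F2 with DMSO and 2807, 2882 and 2736 with tazemetostat. Its F2 change had an interval of -0.09 to 0.09. The other PRC2 core genes moved less: EED had a difference of 0.66, SUZ12 one of 0.12, and EZH1, the paralog of EZH2, one of -0.27. Over all genes tested, 5.06% passed higher in F2 and 2.84% lower. Of 49 Polycomb and chromatin genes tested, shares were no larger: 2 (4.08%) passed higher in F2, EZH2 and PHF19, and 1 (2.04%) lower. The last was JARID2, a PRC2 cofactor that rose in both lines, by 3.80 in WT and 2.78 in F2, and its difference of -1.03 fell under the limit with a pseudocount of 5 (-0.997) and with the same total (-0.90), and without F2 DMSO replicate 2 (-0.961), WT DMSO replicate 1 (-0.969) or WT tazemetostat replicate 3 (-0.996).

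**Figure D2:**
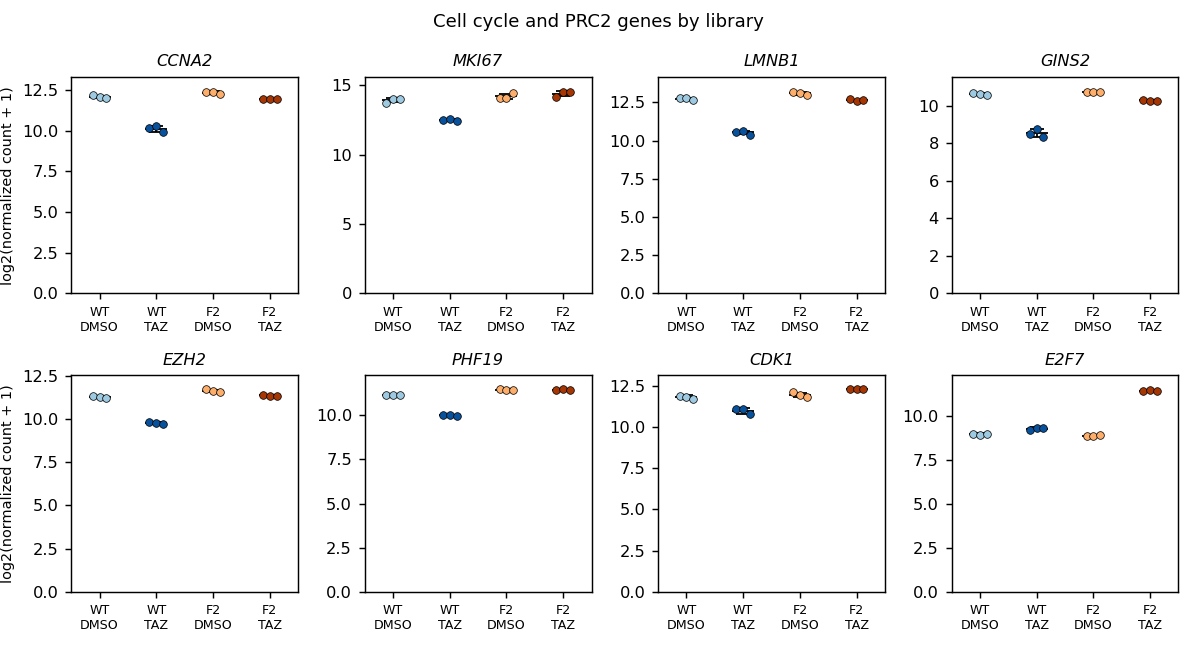
log2(normalized count + 1) of 8 cell cycle and PRC2 genes in the 12 libraries; points are libraries, horizontal marks the mean and bars the SD of 3. In 7 panels the WT tazemetostat libraries sit below all others, and in the E2F7 panel the F2 tazemetostat libraries sit above all others.

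Genes outside the cell cycle had the largest differences of this class. THBS4, a thrombospondin of the extracellular matrix, was 94.3, 96.1 and 112 normalized counts in WT with DMSO and 19.7, 21.5 and 25.9 with tazemetostat, and 131, 122 and 110.4 in F2 with DMSO and 103, 128 and 133 with tazemetostat. Its difference of 2.12 ± 0.22 (SE) was the largest among genes with a mean of at least 50 in the class. SCUBE1, a secreted protein, was 459, 346 and 610.4 normalized counts in WT with DMSO and 146, 123 and 164 with tazemetostat, and 121, 98.5 and 84.9 in F2 with DMSO and 149, 133 and 126 with tazemetostat. Here the lines already differed in DMSO, and the WT level came down to that of F2. ITGA9, an integrin subunit, and EMILIN3, a matrix glycoprotein, had differences of 2.01 ± 0.19 (SE) and 1.95 ± 0.28 (SE).

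For the genes of CDK inhibitors, which act upstream of RB1, no response difference passed the threshold, except that of CDKN2C with every library scaled to the same total (1.02). CDKN2A, the gene of p16, rose by 1.74 in WT and 1.52 in F2, and CDKN2B by 3.26 and 3.40. The interval of the difference was -0.45 to 0.02 for CDKN2A and -0.08 to 0.35 for CDKN2B. CDKN1A, the gene of p21, changed by 0.82 and 0.92, and the interval of its difference was -0.05 to 0.25. CDKN2D, the gene of p19, rose in WT by 1.03 against 0.11 in F2, and its difference of -0.92 ± 0.14 (SE) was short of the fold limit. CDKN2C fell in WT by 1.61 and changed by -0.72 in F2, a difference of 0.89 ± 0.11 (SE). CDKN1B and CDKN1C did not pass. CDK6, the kinase that phosphorylates RB1, was 5.24, 2.83 and 3.79 normalized counts in WT with DMSO and 2847, 2660 and 2685 with tazemetostat, and 3.07, 1.04 and 3.64 in F2 with DMSO and 2483, 2994 and 3072 with tazemetostat. It rose from near the floor in both lines, with a difference of 0.58 that did not pass (limma adjusted p = 0.24). CCND1, cyclin D1, rose in WT by 1.05 and changed by 0.55 in F2, a difference of -0.50 ± 0.06 (SE). CDK4 had a difference of 0.19, and LIN9, a MuvB subunit, one of 0.54. PGBD5, a domesticated transposase known for its part in rhabdoid tumours, rose by 2.70 in WT and 3.11 in F2, and the difference of 0.41 did not pass (limma adjusted p = 0.051). In E1 PGBD5 rose by 8.24, from a mean of 2.56 normalized counts with DMSO. Its F2 minus E1 value of -5.13 passed (limma adjusted p = 2.2e-09).

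Among the 77 rises in F2 only, ETV1, an ETS family transcription factor, was 204, 219.6 and 162 normalized counts in WT with DMSO and 99.5, 94.5 and 113 with tazemetostat, and 99.4, 96.5 and 83.7 in F2 with DMSO and 317, 304 and 322 with tazemetostat. The highest libraries were those of F2 with tazemetostat, and WT with tazemetostat and F2 with DMSO overlapped at the low end. Its response difference was 2.66 ± 0.18 (SE; limma adjusted p = 1.4e-07). PLCE1, a phospholipase C that acts downstream of RAS, was 508, 467 and 589.6 normalized counts in WT with DMSO and 491, 467 and 552 with tazemetostat, and 195, 222 and 232 in F2 with DMSO and 951, 1028 and 1092 with tazemetostat. E2F7, an E2F that represses transcription, was 503, 474 and 508 normalized counts in WT with DMSO and 576, 644 and 626 with tazemetostat, and 469, 457 and 479 in F2 with DMSO and 2697, 2822 and 2778 with tazemetostat. The F2 tazemetostat libraries stood above all others, which ranged from 457 to 644, a difference of 2.25 ± 0.08 (SE). E1 changed by 0.85, and the F2 response exceeded that of E1 by 1.71 ± 0.12 (SE; limma adjusted p = 1.1e-08 over 18 libraries, where 5.78% of genes passed). The corresponding values for ETV1 and PLCE1 were 2.27 and 2.41, and both passed. AGPAT9, an acyltransferase of glycerolipid synthesis, had a difference of 1.86 ± 0.18 (SE), with a lower level in F2 with DMSO. In the class as a whole the median change was 0.34 in WT, 1.86 in F2 and 0.71 in E1. The count of 77 rested partly on a single library: without F2 DMSO replicate 3 it was 120.

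Among the 86 falls in F2 only, CLDN16, a tight junction protein of the kidney, was 45.4, 77.3 and 30.3 normalized counts in WT with DMSO and 28.6, 57.1 and 38.2 with tazemetostat, and 163, 172 and 129.8 in F2 with DMSO and 10.7, 12.1 and 11.1 with tazemetostat. The F2 DMSO libraries were the highest and the F2 tazemetostat libraries the lowest, and the difference was -3.40 ± 0.43 (SE). In E1 the gene changed by 3.06, the opposite direction, and the F2 minus E1 value was -6.71 (limma adjusted p = 3.6e-08). NOX3, an NADPH oxidase, was 442, 458 and 459.9 normalized counts in WT with DMSO and 400.1, 331 and 299 with tazemetostat, and 372, 358 and 341 in F2 with DMSO and 42.7, 50.5 and 38.9 with tazemetostat. PRR18 was 521, 536 and 499.7 normalized counts in WT with DMSO and 514, 464 and 509.8 with tazemetostat, and 591, 560.2 and 494 in F2 with DMSO and 101, 98.9 and 83.2 with tazemetostat. Its WT interval was -0.27 to 0.14, and its change was -2.53 in F2 and -2.02 in E1. C2CD4A had a difference of -2.42 ± 0.27 (SE). MSX1, a homeobox factor, and OSR2, a zinc finger factor of limb and palate, fell in F2 by 1.04 and 1.65 and changed by 0.34 and -0.48 in WT. The class medians were -0.15 in WT, -1.61 in F2 and -1.11 in E1.

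Rises in WT only had a different form, since the 4 largest were genes that F2 expressed without the drug. KIF26B, a kinesin family protein, was 8.73, 10.4 and 17.0 normalized counts in WT with DMSO and 586, 506 and 651 with tazemetostat, and 456, 528 and 546 in F2 with DMSO and 359, 388 and 369 with tazemetostat. WT rose with tazemetostat to above the F2 libraries with tazemetostat (log2 difference of F2 from WT -0.64, limma adjusted p = 0.0078). F2 changed by -0.45, short of the fold limit. TMEM117, a membrane protein, was 7.86, 5.65 and 5.68 normalized counts in WT with DMSO and 181, 211 and 167 with tazemetostat, and 241, 245 and 232 in F2 with DMSO and 363, 364 and 372 with tazemetostat. PRICKLE1, a component of planar cell polarity, was 34.1, 29.2 and 39.7 normalized counts in WT with DMSO and 332, 319 and 369 with tazemetostat, and 3681, 3374 and 3484 in F2 with DMSO and 2531, 2466 and 2632 with tazemetostat. NFIB, a transcription factor of the nuclear factor I family, was 5.24, 5.65 and 15.1 normalized counts in WT with DMSO and 154, 165 and 163 with tazemetostat, and 259, 221 and 307 in F2 with DMSO and 362, 469 and 519 with tazemetostat. The response differences of KIF26B, TMEM117, PRICKLE1 and NFIB were -5.97 ± 0.26, -4.06 ± 0.20, -3.74 ± 0.13 and -3.43 ± 0.40. The clones did not always respond alike: KIF26B rose by 4.73 in E1, and the F2 minus E1 value was -5.18 (limma adjusted p = 5.1e-11), while the F2 minus E1 value of PRICKLE1 was -0.11 (adjusted p = 0.7). FSTL1, a secreted glycoprotein, was 679, 703 and 669 normalized counts in WT with DMSO and 5532, 5459 and 4983 with tazemetostat, and 4468, 4166 and 3935 in F2 with DMSO and 7267, 6968 and 6981 with tazemetostat. In E1 NFIB rose by 5.18, from near the floor, and FSTL1 by 6.22. Their F2 minus E1 values of -4.41 and -5.46 passed, and that of TMEM117 (-0.10) did not. These examples were not typical of the class, in which 68 of 96 genes had lines that differed past the threshold with tazemetostat only.

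Rises of different size in both lines formed the largest class by limma (515 genes), whereas edgeR placed 300 genes in both same-direction classes together and 316 among falls in WT only. In 90 of the 329 genes that rose more in F2, the lines differed past the threshold in DMSO only. The way these genes were chosen fixes that F2 was lower in DMSO and that the lines did not differ past the threshold with tazemetostat. Their median level was 21.2 normalized counts in WT and 3.75 in F2 with DMSO, and 412 and 364 with tazemetostat. In the reverse direction, 13 of 186 genes differed in DMSO only. Over all genes tested the lines differed for 3.06% in DMSO and 12.4% with tazemetostat.

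PTGFRN, a membrane glycoprotein that binds tetraspanins, was 28.8, 82.9 and 48.3 normalized counts in WT with DMSO and 915, 965 and 802 with tazemetostat, and 0 in each library in F2 with DMSO and 2127, 2091 and 2196 with tazemetostat. With the F2 DMSO group at the floor of 3 reads per library, the rise in F2 was at least 653-fold. MDFIC, an inhibitor of MyoD family factors, was 78.6, 85.8 and 89.0 normalized counts in WT with DMSO and 239, 249.7 and 225 with tazemetostat, and 1.02, 1.04 and 0 in F2 with DMSO and 501, 477 and 487 with tazemetostat. PRICKLE2, the paralog of PRICKLE1, was 68.1, 67.9 and 63.4 normalized counts in WT with DMSO and 4386, 4078 and 4114 with tazemetostat, and 0 in each library in F2 with DMSO and 2474, 2757 and 2679.7 with tazemetostat. PLXNA2, a semaphorin receptor, was 59.4, 82.0 and 56.8 normalized counts in WT with DMSO and 2102, 1860.3 and 2023 with tazemetostat, and 0, 0 and 3.64 in F2 with DMSO and 1079, 1144 and 1116 with tazemetostat. In each of these the WT line expressed the gene in DMSO, and F2 was at or near the floor. With tazemetostat the log2 difference of F2 from WT was 1.26, 1.03, -0.67 and -0.84 for the 4 genes. Fitted differences of such genes depend on the pseudocount. The F2 minus E1 values of PTGFRN (0.80) and MDFIC (-0.05) did not pass, and those of PRICKLE2 (9.73) and PLXNA2 (6.43) did.

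The reverse held for NAV2, a cytoskeletal protein of neurite growth, which was 23.6, 33.0 and 37.9 normalized counts in WT with DMSO and 12244, 11837 and 13104 with tazemetostat, and 3031, 3042 and 3639 in F2 with DMSO and 11130, 11893 and 11830 with tazemetostat. WT had few reads in DMSO and F2 many, and with tazemetostat the log2 difference of F2 from WT was -0.09. Its response difference was -6.75 ± 0.18 (SE; limma adjusted p = 1.8e-11), and that between F2 and E1 was -8.79. HTR2A, a serotonin receptor, was 0, 1.88 and 0 normalized counts in WT with DMSO and 239, 236 and 224 with tazemetostat, and 21.5, 20.7 and 21.8 in F2 with DMSO and 60.2, 73.7 and 59.2 with tazemetostat, and its difference was -5.82 ± 0.46 (SE). In E1 HTR2A rose by 6.45 from near the floor, and the F2 minus E1 value of -4.91 passed (limma adjusted p = 6.0e-07).

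**Figure D3:**
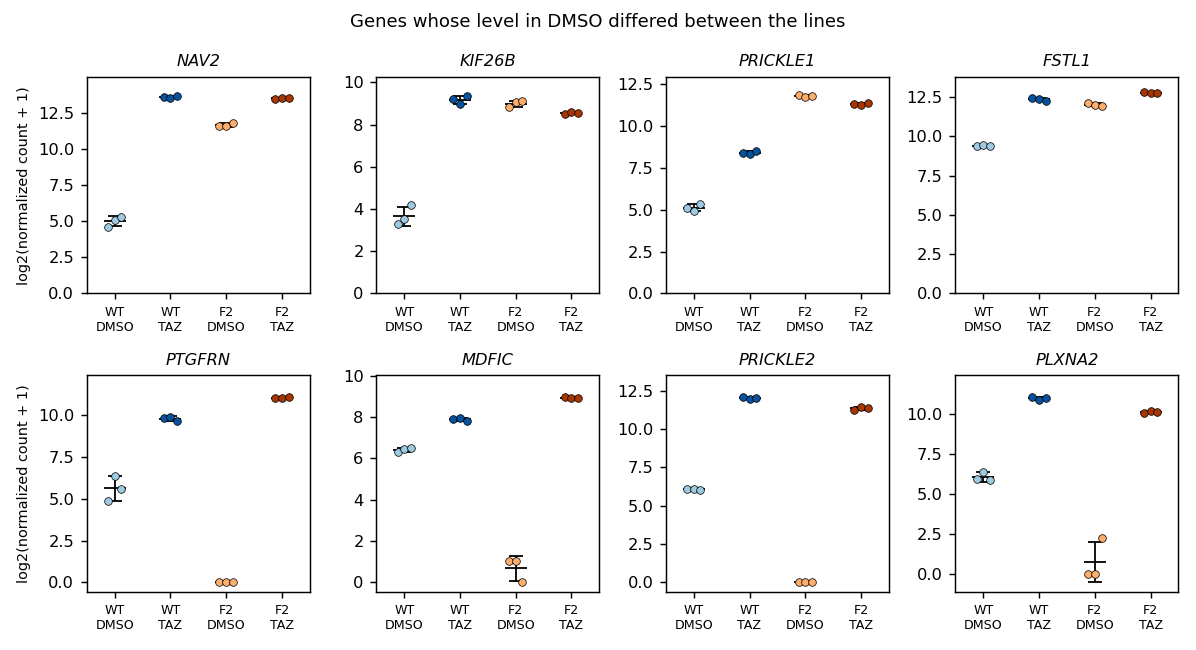
log2(normalized count + 1) of 8 genes in the 12 libraries; points are libraries, horizontal marks the mean and bars the SD of 3. In the top row F2 was higher than WT in DMSO, and in the bottom row lower.

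**Figure D4:**
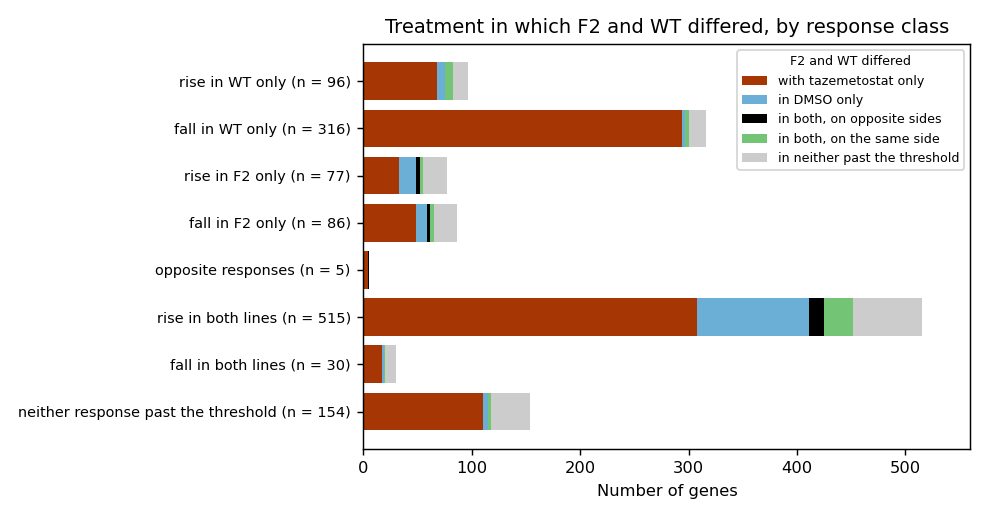
Number of genes in each response class (bars), split by the treatment in which F2 and WT differed past the threshold. Most genes that fell in WT only differed with tazemetostat only (294 of 316), and the genes that rose in both lines hold 103 that differed in DMSO only.

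Falls in both lines were few. COL3A1, a fibrillar collagen, was 28423, 25919 and 25221 normalized counts in WT with DMSO and 4286, 4392 and 4368 with tazemetostat, and 27928, 26312 and 24667 in F2 with DMSO and 13302, 12146 and 13122 with tazemetostat, and it fell less in F2 by 1.57 ± 0.08 (SE). KCNT2, a sodium-activated potassium channel, fell less in F2 too (1.67 ± 0.17). LINC00052, a long non-coding RNA, was 5867, 6127 and 6264 normalized counts in WT with DMSO and 2572, 2526 and 2218 with tazemetostat, and 9054, 8779 and 8341 in F2 with DMSO and 626, 590.4 and 558 with tazemetostat. SHISA3, a regulator of WNT and FGF receptors, fell by 1.58 in WT and 3.84 in F2. The F2 minus E1 values of LINC00052 and SHISA3 were -2.19 and -0.20, and neither passed (limma adjusted p = 0.12 and 0.36). E1 had little LINC00052, at a mean of 27.3 normalized counts with DMSO and 1.06 to 47.1 with tazemetostat. The E1 response of LINC00052 rests on these few, scattered counts, so the value of -2.19 cannot decide whether the clones differed.

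Opposite responses, each past the threshold, were found for 5 genes. EPHA3, an ephrin receptor, was 67.3, 47.1 and 70.0 normalized counts in WT with DMSO and 175, 219 and 196 with tazemetostat, and 153, 99.6 and 164 in F2 with DMSO and 61.2, 68.6 and 62.0 with tazemetostat. It rose in WT by 1.68 and fell in F2 by 1.07, so that the order of the lines was inverted. HTR2B, a serotonin receptor, was 461, 420.3 and 434 normalized counts in WT with DMSO and 211, 238 and 206 with tazemetostat, and 282, 209 and 217 in F2 with DMSO and 524, 470.3 and 485 with tazemetostat. It fell in WT and rose in F2, and the levels exchanged places. The remaining 3, EVPL, AF131217.1 and RP11-138H11.1, lie outside the rule for named genes and were named after their values were seen. EVPL, the gene of envoplakin, changed by -1.06 in WT and 1.33 in F2, AF131217.1 by 1.14 and -1.43, and RP11-138H11.1 by 1.71 and -1.78. EPHA3 was 8939 ± 1316 normalized counts (SD, n = 3) in E1 with DMSO against 139 ± 34.3 in F2. Its level thus differed between the clones, but its change in E1 was -0.72. The F2 minus E1 value of -0.36 did not pass (limma adjusted p = 0.39).

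Among the 154 genes with a response difference but neither response present, small changes in opposite directions added up. BRCA2, a gene of homologous recombination, changed by -0.97 in WT and 0.44 in F2, and SKA1, a kinetochore gene, by -0.87 and 0.55. PKD1L2, a polycystin family gene, changed by 0.96 and -0.67, and SYNC, an intermediate filament protein, by 0.82 and -0.66. The differences were 1.41 ± 0.19, 1.42 ± 0.14, -1.62 ± 0.17 and -1.48 ± 0.09.

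Lists of matrix, actin, guidance and developmental genes held differences in both directions. The counts that follow are to be read against all genes tested, of which 5.06% had a higher and 2.84% a lower response in F2. In WT 14.6% of all genes tested rose and 6.81% fell, and in F2 13.3% rose and 3.79% fell. Of 57 matrix genes, 33 rose in WT and 32 in F2, and the response was higher in F2 for 9 (15.8%) and lower for 4 (7.02%; median difference 0.19). LAMB1, a laminin chain, was 79.5, 33.0 and 71.0 normalized counts in WT with DMSO and 175, 213 and 188 with tazemetostat, and 7.17, 2.07 and 2.43 in F2 with DMSO and 96.1, 83.8 and 114 with tazemetostat, a difference of 2.75 ± 0.50 (SE). ITGA1, a collagen receptor subunit, rose less in F2, by 1.43. MMP2, a gelatinase, and COL12A1, a collagen, had limma differences of 2.76 and -2.16, which edgeR did not call (adjusted p = 0.136 and 0.0765).

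Of 31 contractile and actin genes, 7 passed higher in F2 (22.6%) and 2 lower (6.45%). CALD1, caldesmon, was 90.0, 96.1 and 58.7 normalized counts in WT with DMSO and 41869, 40666 and 41505 with tazemetostat, and 11.3, 2.07 and 0 in F2 with DMSO and 17574, 17445 and 18800 with tazemetostat. F2 started near the floor and stayed below WT with tazemetostat. MYLK, myosin light chain kinase, had a difference of 3.05 ± 0.35 (SE). SYNPO2, an actin-bundling protein, was 0.873, 0 and 0.946 normalized counts in WT with DMSO and 1232, 1281 and 1304 with tazemetostat, and 2.05, 2.07 and 3.64 in F2 with DMSO and 149.5, 125 and 174 with tazemetostat, a difference of -4.29 ± 0.37 (SE). Both lines had at most 3 reads of SYNPO2 per library in DMSO, so the size of that difference depends on the pseudocount. FLNC, filamin C, rose by 2.54 in WT and 1.35 in F2.

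Of 57 axon guidance genes, 9 passed higher in F2 (15.8%) and 2 lower (3.51%). Besides PLXNA2 and EPHA3, NRP1, a receptor of semaphorins and VEGF, was 78.6, 45.2 and 42.6 normalized counts in WT with DMSO and 546, 526 and 470.4 with tazemetostat, and 13.3, 12.4 and 7.28 in F2 with DMSO and 569.9, 591 and 624 with tazemetostat, a difference of 2.43 ± 0.32 (SE). Of 42 WNT and planar polarity genes, 5 passed higher (11.9%, beside 5.06% of all genes) and 2 lower (4.76%, beside 2.84%). RSPO3, an activator of WNT signalling, rose by 1.57 in WT and 4.68 in F2 and stayed lower in F2 in both treatments (-5.30 and -2.18 on the log2 scale). WNT5B, a WNT ligand, had a difference of -1.44 ± 0.15 (SE) with neither response present.

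Of 78 PRC2-bound developmental genes tested, from a list of 133, 29 rose and 10 fell in each line, and the response was higher in F2 for 7 (8.97%) and lower for 4 (5.13%). Of all genes tested, 14.6% rose and 6.81% fell in WT, and 13.3% rose and 3.79% fell in F2. The response was higher in F2 for 5.06% of them and lower for 2.84%. TWIST1, a mesenchymal transcription factor, rose by 1.63 in WT and 3.64 in F2, and by 6.06 in E1. The E1 rise started near the floor, at a mean of 0.947 normalized counts with DMSO, so its size depends on the pseudocount. FOXF1, a factor of visceral mesoderm, had a limma difference of 1.62, which edgeR did not call (adjusted p = 1). Relative to the median of all genes, the list's median difference was -0.014 and, with the same total, -0.012.

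Of 36 YAP and TEAD target genes, 3 passed higher (8.33%) and 2 lower (5.56%) in F2, shares near the 5.06% and 2.84% of all genes tested. F3, tissue factor, rose by 3.48 in WT and 1.17 in F2. NT5E, the ecto-nucleotidase CD73, was 21.8, 13.2 and 15.1 normalized counts in WT with DMSO and 5132, 5479 and 4689.5 with tazemetostat, and 0 in each library in F2 with DMSO and 1724, 1655 and 1928 with tazemetostat. IGFBP3, an IGF binding protein also held by the p53 list, was 119.7, 35.8 and 36.0 normalized counts in WT with DMSO and 11888, 11315 and 11161 with tazemetostat, and 3.07, 3.11 and 1.21 in F2 with DMSO and 5257, 4799 and 4999.6 with tazemetostat. Both started near the floor in F2 and were lower in F2 with tazemetostat, and with a pseudocount of 5 the difference of 2.59 for NT5E became 0.574. Of 45 p53 target genes, 3 passed higher (6.67%, near the 5.06% of all genes tested) and 0 lower, also by edgeR and DESeq2, while 18 were lower at an unadjusted limma p under 0.05. CYFIP2, a regulator of actin, rose by 3.56 in WT and 4.89 in F2, and its E1 change was 0.80, an F2 minus E1 value of 4.09.

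Of 42 interferon-stimulated genes, 25 rose in WT and 22 in F2, where 14.6% and 13.3% of all genes tested rose. The response in F2 was higher for 3 and lower for 3 (7.14% each, beside 5.06% and 2.84% of all genes). DDX60, an antiviral helicase, was 2.62, 1.88 and 1.89 normalized counts in WT with DMSO and 438, 470.5 and 424 with tazemetostat, and 0, 1.04 and 0 in F2 with DMSO and 791, 741 and 772 with tazemetostat, a difference of 2.09 ± 0.35 (SE). Both lines had at most 3 reads of DDX60 per library in DMSO, so the size of that difference depends on the pseudocount. IFI6 was 657, 679.5 and 667 normalized counts in WT with DMSO and 1166, 1122 and 1138 with tazemetostat, and 501, 478 and 416 in F2 with DMSO and 300.0, 285 and 302 with tazemetostat. Its difference of -1.42 ± 0.10 (SE) came from changes of 0.77 and -0.65 that did not pass. ISG15, the ubiquitin-like modifier, rose in WT by 1.10 and changed by 0.08 in F2. Its difference of -1.02 was -0.901 with the same total and it lost its call without WT DMSO replicate 3 (-0.943), WT tazemetostat replicate 3 (-0.972), or F2 DMSO replicate 2 (-0.870), F2 tazemetostat replicate 2 (-0.992) or 3 (-0.995). XAF1 had a limma difference of 1.49 (adjusted p = 0.024), which edgeR did not call (adjusted p = 0.174), and which lost its call without WT DMSO replicate 1 (1.38), WT tazemetostat replicate 1 (1.45) or 3 (1.36), or F2 tazemetostat replicate 2 (1.48) or 3 (1.41). Of 34 antigen presentation genes, 21 rose in each line and 1 passed in the difference, lower in F2, by limma and by DESeq2 and 0 by edgeR. None of the 25 cholesterol synthesis genes and 74 ribosomal protein genes passed by limma, edgeR or DESeq2, and 10 of each list had an unadjusted limma p under 0.05.

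**Figure D5:**
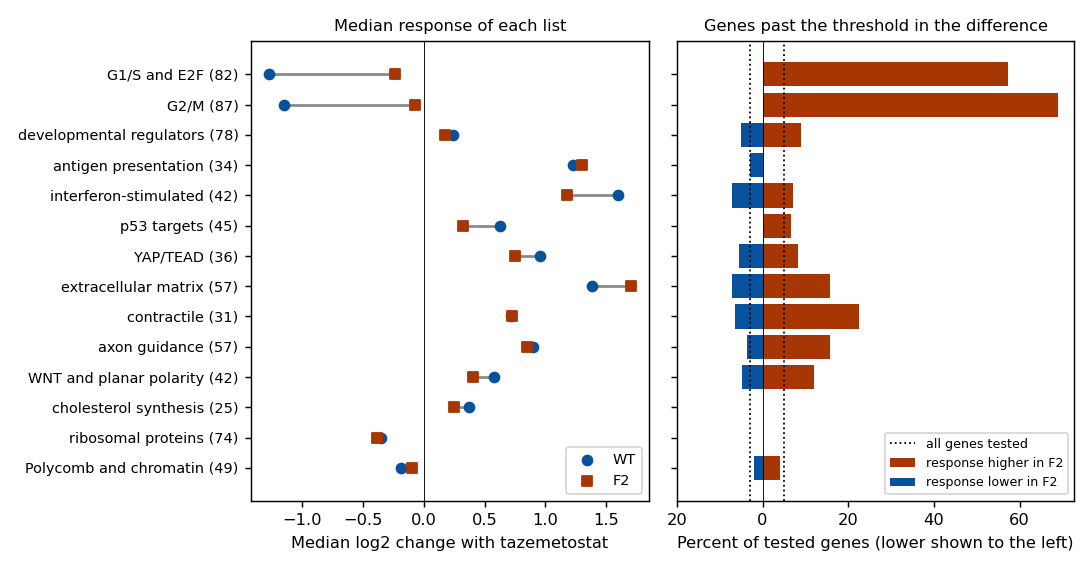
Left, median log2 change with tazemetostat of each gene list in WT and in F2 (number of genes tested in brackets); right, percent of its genes past the threshold in the response difference, higher in F2 to the right and lower to the left. The E2F and G1/S and the G2/M lists lie below 0 in WT and near 0 in F2.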

How the data were processed

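Poly(A) RNA of 12 of the series' 18 libraries, with 3 in each of 4 groups, was analysed; groups came from the sample titles. The values are a signal: the authors deposited 1 table of counts per gene, scaled by a factor for each library, and all values became whole reads within 0.001 when divided by the library's smallest step. Per the submitters' processing notes, the tools were Trim Galore 0.4.4, STAR 2.6.0a, HTSeq and DESeq2, and the build hg19; the annotation and whether counting used strand are not given in the sources used here, so antisense and overlapping genes, and near-identical copies, are uncertain. Depth was 25709489 to 39314860 reads per library; floors (3 reads) cover counting error only.

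Genes with a mean of at least 10 were fitted with limma 3.58.1 in R 4.3.3 (lmFit, eBayes with trend) on log2(value + 1) with 4 group means. On that scale the log2 change of a low gene is understated. Called genes had a Benjamini-Hochberg adjusted p under 0.05 and a size of at least 1; the 2 responses came from the same fit, so classes are a description. F2 minus E1 responses used all 18 libraries and share the F2 libraries with the comparison against WT. Whether replicates were separate cultures is stated only as biological replicates, so p-values measure the spread between these libraries.

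Alternatives were other pseudocounts, filters, scalings and fold limits, all 18 libraries, a replicate block, leaving out each library, and edgeR 4.0.16 and DESeq2 1.42.0 on the recovered reads. The fit was tested on simulated data. Named genes were, at a mean of at least 50, the 4 largest differences of each one-line class, up to 4 opposite, 2 per direction of the other classes and of each list, and all 33 genes of a list of RB1, PRC2 and cell cycle genes. The members and lists were chosen with earlier results of these data known. Promoters came from RefSeq. Plots used matplotlib 3.10.9 (Python 3.11.15).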

Additional observations from a re-analysis of the deposited data

Results flagged for a closer look

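The effect of tazemetostat differed between F2 and WT, by the limma test of the difference itself, for 1279 genes: 819 whose response was higher in F2 and 460 whose response was lower. The genes named by the rule that passed are listed here with their response difference (log2, F2 minus WT).

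Genes that fell in WT only were THBS4 (2.12), SCUBE1 (2.10), ITGA9 (2.01), EMILIN3 (1.95), LMNB1 (1.75), GINS2 (1.65), MKI67 (1.62), CCNA2 (1.57), CCNE2 (1.36), FOXM1 (1.34), MYBL2 (1.26), EZH2 (1.22), AURKB (1.21), PHF19 (1.14) and RBL1 (1.10). Genes that rose in WT only were KIF26B (-5.97), TMEM117 (-4.06), PRICKLE1 (-3.74), NFIB (-3.43), FSTL1 (-2.20) and ISG15 (-1.02). Genes that rose in F2 only were ETV1 (2.66), PLCE1 (2.29), E2F7 (2.25) and AGPAT9 (1.86), and those that fell in F2 only were CLDN16 (-3.40), NOX3 (-2.59), PRR18 (-2.46), C2CD4A (-2.42), MSX1 (-1.38) and OSR2 (-1.17). Opposite responses were those of HTR2B (2.08) and EPHA3 (-2.75).

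Among genes that rose in both lines, the rise was larger in F2 for PTGFRN (6.90), MDFIC (6.77), PRICKLE2 (5.41), PLXNA2 (4.47), CALD1 (3.38), RSPO3 (3.12), MYLK (3.05), IGFBP3 (2.85), MMP2 (2.76), LAMB1 (2.75), NT5E (2.59), NRP1 (2.43), DDX60 (2.09), TWIST1 (2.01), FOXF1 (1.62), XAF1 (1.49) and CYFIP2 (1.33), and smaller for NAV2 (-6.75), HTR2A (-5.82), SYNPO2 (-4.29), F3 (-2.30), COL12A1 (-2.16), ITGA1 (-1.43), FLNC (-1.19) and JARID2 (-1.03). Among genes that fell in both lines, the response was higher in F2 for KCNT2 (1.67), COL3A1 (1.57) and E2F2 (1.21), and lower for LINC00052 (-2.56) and SHISA3 (-2.26). With neither response present, the difference was positive for SKA1 (1.42), BRCA2 (1.41), CDK1 (1.18) and AURKA (1.06), and negative for PKD1L2 (-1.62), SYNC (-1.48), WNT5B (-1.44) and IFI6 (-1.42).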

How the results depend on the processing

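No named gene that passed changed direction under the alternatives run. For the 71 named genes that passed, 838 values without 1 library kept the call and 14 lost it, and 767 under other settings kept it and 14 lost it. The other named genes gained it in 14 values. With a pseudocount of 5 the opposite class held 3 genes. Without a filter on low values, rises in WT only were 267, rises in F2 only 212 and opposite responses 16. With a mean of at least 50, lower responses were 276, rises in WT only 63, rises in F2 only 33, opposite responses 3, changes in the same direction 363 (against 545) and genes with neither response 85. With the same total, rises in WT only were 63. With no fold limit, higher responses were 2785 and lower 2913, rises and falls in WT only 776 and 922, in F2 only 281 and 417, opposite responses 437, the same direction 2813, neither 52, and E2F and G1/S genes 79. Changes in the same direction were 300 by edgeR and 301 by DESeq2. On the gene's strand alone, 20.5% of the E2F and G1/S promoters held E2F letters and 53.5% of the G2/M promoters TTTGAA. The cause of these moves was not tested, except that fewer or more genes were tested under the filters.

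Leaving out each library gave 723 to 950 higher and 427 to 471 lower responses, 88 to 102 rises and 274 to 352 falls in WT only, 64 to 120 rises and 77 to 90 falls in F2 only, 4 to 7 opposite, 502 to 567 in the same direction, 127 to 192 with neither, 43 to 48 E2F and G1/S genes and 52 to 62 G2/M genes. Replicate numbers are shared between the groups. Deviations of same-numbered libraries correlated at 0.128, 0.0144 and 0.231 on average for replicates 1, 2 and 3. Single values ran from 0.0602 to 0.173, from -0.126 to 0.162 and from 0.0907 to 0.375. The best match had the library's own number for 7 of 12 libraries. Whether same-numbered libraries belong together was not tested, and the main fit took no pairs. With the replicate number as a block, 918 responses were higher and 478 lower, with 353 falls and 95 rises in WT only. Depth limits the genes near 3 reads in DMSO, whose differences rest on the pseudocount.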

Other observations

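Histone genes were examined after their values were seen. Of 35 tested genes with a HIST symbol, 10 rose and 3 fell in WT, 4 rose in F2, and the response was higher in F2 for 2 and lower for 4. Over all genes tested, 14.6% rose and 6.81% fell in WT, and 13.3% rose in F2. The response was higher in F2 for 5.06% of all genes and lower for 2.84%. HIST1H2BC, HIST1H2BG, HIST2H2BE and HIST3H2A were lower. On the log2 scale HIST1H2BC changed by 2.02 in WT and 0.87 in F2, and HIST2H2BE changed by 1.64 in WT and 0.61 in F2. These genes have near-identical copies, so their counts are uncertain.

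The ATG8 family, proteins that attach to autophagosome membranes, was also chosen after its values were seen. Of 5 tested members, GABARAPL1 and GABARAPL2 had a lower response in F2, with differences of -1.40 ± 0.08 (SE) and -1.46 ± 0.13. GABARAPL1 went from a mean of 3875 to 18882 normalized counts in WT and from 2978 to 5503 in F2. MAP1LC3C had a higher response in F2, at 3.17 ± 0.38. Over all genes tested, 5.06% had a higher and 2.84% a lower response in F2.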
